A study of Rattus norvegicus with 12 samples.

Results

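Ccm2l, Tc2n, Steap2, Tmco1 and Cyb561 are 5 of the 10244 genes tested, among 14217 on the array, in the left ventricle of aged female rats, and they were singled out because their array values were high in rats with lifelong voluntary exercise. They were chosen for small p-values in that group (EX) against the group with short activity sessions (PA), with an EX mean above the mean of the sedentary group (SED) as well. The array carries 6 probe sets, groups of short probes for 1 transcript, that are annotated to these genes alone, of which 5 passed the filter on dim signal. All rats were 16-month-old female Sprague-Dawley animals from Charles River. The EX rats had regular access to voluntary exercise throughout life, the PA rats were placed in a large box for physical activity in 2 sessions a week of 1 h each, and the SED rats lived in a standard cage alone. Each group has 4 arrays, while the design text speaks of 12 rats a group and 4 rats to a pool, enough for 3 pools, so which rats stand behind an array is not known. P-values therefore measure the spread between these pooled arrays, which may be technical.

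The proteins belong to different parts of the cell. Ccm2l is an endothelial relative of Ccm2, the scaffold of the cerebral cavernous malformation complex, which restrains a kinase pathway leading to the flow-responsive factors Klf2 and Klf4. Tc2n carries tandem C2 domains, a fold that in many trafficking proteins binds membrane lipids. Tmco1 is a membrane protein of the endoplasmic reticulum that has been described both as a calcium leak channel and as part of a translocon for multi-spanning membrane proteins. Steap2 and Cyb561 are membrane proteins that carry electrons across a bilayer on b-type haem: Steap2 reduces iron and copper, and Cyb561 passes electrons from ascorbate into secretory vesicles, where they serve amine and peptide hormone synthesis.

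Promoter sequence was at hand for 4 of the 5 genes and is shown because the genes were high on the same arrays. The 250 bases before the annotated start are given 5′ to 3′ on the gene's strand, from RefSeq, with motif matches in capitals.
Ccm2l promoter, GRCr8 chr3:161993467-161993716, plus strand: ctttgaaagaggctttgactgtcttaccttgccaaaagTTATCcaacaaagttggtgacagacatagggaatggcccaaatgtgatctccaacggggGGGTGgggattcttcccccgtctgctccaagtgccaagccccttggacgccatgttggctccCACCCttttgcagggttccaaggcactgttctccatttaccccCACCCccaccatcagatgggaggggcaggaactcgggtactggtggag
Tmco1 promoter, GRCr8 chr13:81992922-81993171, plus strand: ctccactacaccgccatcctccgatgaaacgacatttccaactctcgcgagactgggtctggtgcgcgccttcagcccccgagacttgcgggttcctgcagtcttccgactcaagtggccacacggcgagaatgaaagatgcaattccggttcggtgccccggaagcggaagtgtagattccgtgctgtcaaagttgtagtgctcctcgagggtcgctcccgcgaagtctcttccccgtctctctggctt
Steap2 promoter, GRCr8 chr4:29303131-29303380, plus strand: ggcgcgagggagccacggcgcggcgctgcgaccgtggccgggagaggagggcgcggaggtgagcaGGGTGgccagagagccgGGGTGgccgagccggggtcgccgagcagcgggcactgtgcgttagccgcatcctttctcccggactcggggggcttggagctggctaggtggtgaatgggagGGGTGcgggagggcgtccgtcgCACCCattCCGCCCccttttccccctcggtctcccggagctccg
Cyb561 promoter, GRCr8 chr10:91388437-91388686, minus strand: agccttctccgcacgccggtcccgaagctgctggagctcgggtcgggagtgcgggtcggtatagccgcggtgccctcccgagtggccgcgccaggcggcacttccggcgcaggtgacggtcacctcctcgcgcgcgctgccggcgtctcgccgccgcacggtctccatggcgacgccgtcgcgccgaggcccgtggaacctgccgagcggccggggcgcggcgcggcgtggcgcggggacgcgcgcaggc
Both strands were searched for the TATA box spelled TATAAA, the CCAAT box spelled CCAAT, the GC box spelled GGGCGG, the KLF core spelled CACCC and the cAMP response element spelled TGACGTCA. Also searched were the hypoxia response core ACGTG, the binding site of oestrogen-related receptors as AAGGTCA, the GATA motif as GATAA, the forkhead motif as GTTTAC and the E box as CACGTG, which contains the hypoxia core. CACCC or its reverse complement occurred 3 times for Ccm2l and 4 times for Steap2 and was not in the windows of Tmco1 and Cyb561, while 49.2% of 33469 promoters held it. Steap2 had 1 GC box (30.5% of promoters) and Ccm2l had 1 GATAA match (23.5%). The windows of Tmco1 and Cyb561 held none of the motifs, and no motif was in more than 2 of the 4 windows. The windows differed in base composition, with 78.4% G or C for Cyb561, 74.0% for Steap2, 58.8% for Tmco1 and 55.2% for Ccm2l against a median of 51.2% over all promoters. Cyb561 had 47 CpG dinucleotides and Ccm2l had 4, against a median of 5.

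Genes listed as ventricular were bright on every array. This does not show that the samples held ventricle alone, since the atrial genes given further below were uneven between arrays. The 9 measured ventricular cardiomyocyte genes averaged 12.93 to 13.03 log2 units on every array, and the 8 epithelial genes on the array all fell under the filter at 4.94. Array medians ran from 5.64 to 5.72. SED 1 stood apart: it correlated with the rest at 0.964 on average, where every other array reached 0.987 to 0.989, and it had the largest difference between the 3′ and 5′ control probe sets of Gapdh (1.56 against 0.96 to 1.35). Without SED 1 the EX minus SED difference was 0.59 for Ccm2l, 1.76 for Tc2n, 0.78 for Steap2, 1.15 for Tmco1 and 1.16 for Cyb561, beside 0.60, 1.53, 0.84, 1.10 and 1.31 with it.

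Ccm2l read 7.61, 7.86, 7.64 and 7.48 on EX arrays 1 to 4, 6.97, 7.14, 7.16 and 7.08 on the PA arrays, and 7.02, 7.18, 6.94 and 7.04 on the SED arrays (log2). All EX arrays lay above all other arrays, and PA and SED shared one range. The means were 7.65 ± 0.16 in EX, 7.09 ± 0.085 in PA and 7.04 ± 0.10 in SED (SD, n = 4 each). EX was thus 0.56 above PA and 0.60 above SED, or 1.47-fold and 1.52-fold. In bulk tissue, more cells of a type and more RNA per cell cannot be told apart. The 14 measured endothelial markers averaged 8.83 to 9.02 log2 units in EX, 8.89 to 9.02 in PA and 8.83 to 8.95 in SED, ranges that overlapped between all 3 groups. The part of endothelial cells in the Ccm2l values was not tested.

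Tc2n had another shape. It read 6.91, 6.97, 7.02 and 6.66 on the EX arrays, 5.68, 6.23, 6.02 and 5.84 on the PA arrays, and 6.04, 4.92, 5.52 and 4.95 on the SED arrays. EX lay above all other arrays, and PA lay mostly between the other groups, with SED 1 inside the PA range. The means were 6.89 ± 0.16, 5.94 ± 0.24 and 5.36 ± 0.53 for EX, PA and SED (SD, n = 4 each). EX was 0.95 above PA and 1.53 above SED, which are 1.93-fold and 2.89-fold. The widest spread was in SED, where SED 1 was the highest array.

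Tmco1 read 7.72, 8.51, 8.36 and 7.88 in EX, 7.17, 7.45, 7.21 and 6.99 in PA, and 7.17, 6.73, 7.35 and 6.81 in SED. The EX arrays were again above all the others, with EX 1 the nearest to them, and PA and SED overlapped. The means were 8.12 ± 0.38, 7.20 ± 0.19 and 7.02 ± 0.29 (SD, n = 4 each), which places EX 0.91 above PA and 1.10 above SED, or 1.88-fold and 2.15-fold.

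The metal reductase Steap2 has 2 probe sets, of which 1 passed the filter. On 1376265_at it read 8.05, 7.72, 8.34 and 8.17 in EX, 7.43, 7.28, 7.48 and 7.74 in PA, and 7.04, 7.32, 7.25 and 7.29 in SED. Here EX and PA touched, since PA 4 (7.74) exceeded EX 2 (7.72), while EX and SED were apart. The means were 8.07 ± 0.26, 7.48 ± 0.19 and 7.22 ± 0.13 (SD, n = 4 each), with EX 0.59 above PA and 0.84 above SED (1.80-fold). The other probe set, 1378295_at, was dim and was not tested. It read 4.68, 4.48, 4.57 and 4.53 in EX, 4.80, 4.62, 4.40 and 4.66 in PA, and 4.69, 5.01, 4.72 and 4.48 in SED. Its means of 4.57, 4.62 and 4.72 in EX, PA and SED were all under the filter at 4.94, so no direction is read from it and the higher EX level of Steap2 rests on 1 probe set. The other 4 genes have 1 probe set each and no second measurement on the array.

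Cyb561, the ascorbate-dependent reductase, was high in EX and near or under the filter on most PA and SED arrays. It read 6.10, 5.77, 6.59 and 5.66 in EX, 4.73, 4.40, 4.27 and 5.51 in PA, and 4.26, 4.87, 5.14 and 4.60 in SED. EX lay above all other arrays, but PA 4 came within 0.15 of EX 4 and stood well above the remaining PA arrays. The means were 6.03 ± 0.42, 4.73 ± 0.56 and 4.72 ± 0.38 (SD, n = 4 each), with EX 1.30 above PA and 1.31 above SED (2.47-fold and 2.48-fold). The PA and SED means were both under the filter at 4.94, so the gene was tested only because it was high in EX. With 32 added on the linear scale, which damps dim signal, the EX minus PA difference was 0.72 and the EX minus SED difference 0.74. The order of the genes turned with that offset: Cyb561 had a larger EX minus PA difference than Tmco1 as deposited (1.30 against 0.91) and a smaller one with the offset (0.72 against 0.79).

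**Figure D1:**
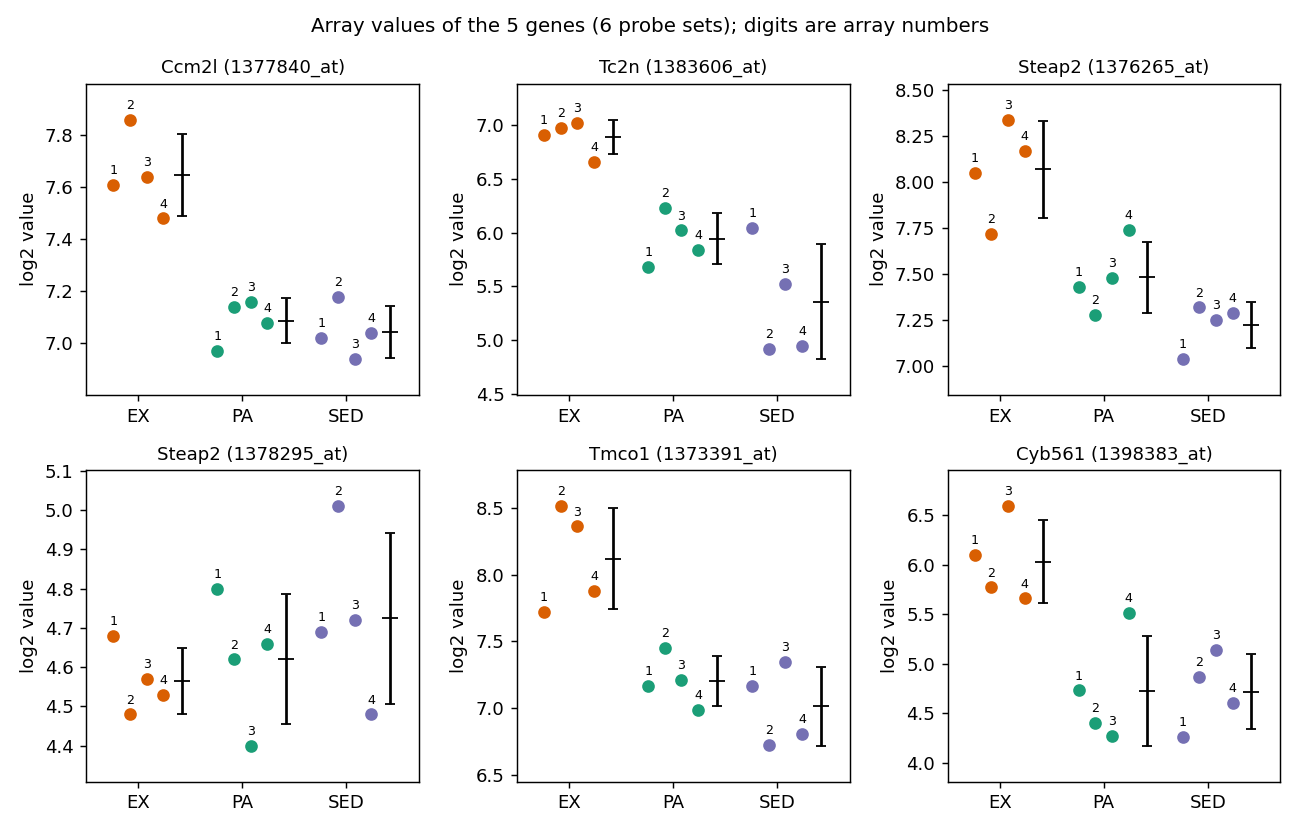
Log2 value of each probe set of Ccm2l, Tc2n, Steap2, Tmco1 and Cyb561 on the 4 EX, 4 PA and 4 SED arrays; each point is an array with its number, and the bar at the right of each group is the mean with its SD. For Ccm2l, Tc2n, Tmco1 and Cyb561 the panels have all EX points above all other points, the Steap2 panel of 1376265_at has EX 2 at 7.72 just under PA 4 at 7.74, and the panel of 1378295_at has all group means under the filter at 4.94.

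These EX differences chose the genes, so they are described here and were not tested. Among the 3118 genes whose EX mean exceeded both other means, ordered by the limma p of EX against PA, Ccm2l was at place 1, Tmco1 at 2, Cyb561 at 3, Tc2n at 5 and Steap2 at 7. The p-values used for that order ran from 0.000113 to 0.00134 before adjustment and from 0.570 to 0.924 after it. Itfg2, a subunit of the KICSTOR complex that restrains mTORC1, was at place 4 and the replication factor Mcm10 at place 6, although neither is among the 5. Itfg2 was 0.39 above PA and 0.36 above SED, and Mcm10 was 0.49 above PA and 0.31 above SED. Just outside came the Mediator subunit Med23 (0.40 above PA), Pxdc1 (0.47) and LOC102548205 (0.53). Over the whole array limma called 0 of 18626 probe sets in EX against PA at an adjusted p of 0.05 (0%), with 534 at an unadjusted p under 0.05. By gene, 0.937% reached that unadjusted level with EX higher and 1.59% with EX lower. EX arrays lay wholly above PA arrays for 1.33% of tested probe sets and above SED arrays for 4.39%, and wholly above both for 67 probe sets, or 0.36%, among them 4 of the 5 genes.

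PA against SED is the comparison that the choice did not name, although both groups entered it as the low side. The choice favoured a low PA mean and a small spread, and the fit shares its spread between the comparisons. Intervals and p-values of the members in PA against SED are therefore not free of the choice. No member passed an adjusted limma p of 0.05 in PA against SED, nor did any of the 18626 probe sets (0%), of which 2840 had an unadjusted p under 0.05. Tc2n was 0.58 ± 0.23 (SE) higher in PA, with a 95% interval of 0.094 to 1.08, an unadjusted limma p of 0.0235 and an adjusted p of 0.265. It was the 1 member with an unadjusted p under 0.05, which 9.28% of tested probe sets reached with PA higher. Without SED 1 the Tc2n difference was 0.81, with an adjusted limma p of 0.179, and the remaining SED arrays lay under all PA arrays.

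For Steap2, Tmco1 and Ccm2l the 95% interval of PA minus SED included 0. The interval ran from -0.05 to 0.56 for Steap2 around a difference of 0.26, and from -0.24 to 0.62 for Tmco1 around 0.19. It ran from -0.17 to 0.26 for Ccm2l around 0.0425. For Cyb561 the difference was 0.01 (-0.25 without PA 4 and -0.14 without SED 1), but both means lay under the filter, so it compares dim values and says nothing of how alike PA and SED were. The PA and SED arrays of all 5 genes overlapped, while 8.39% of tested probe sets did not overlap there in one direction or the other. The median PA minus SED difference over all tested probe sets was 0.0625, so the small positive values of Ccm2l and Cyb561 lay under the general shift. After quantile normalization Ccm2l stood at -0.077 and Cyb561 at 0.12.

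**Figure D2:**
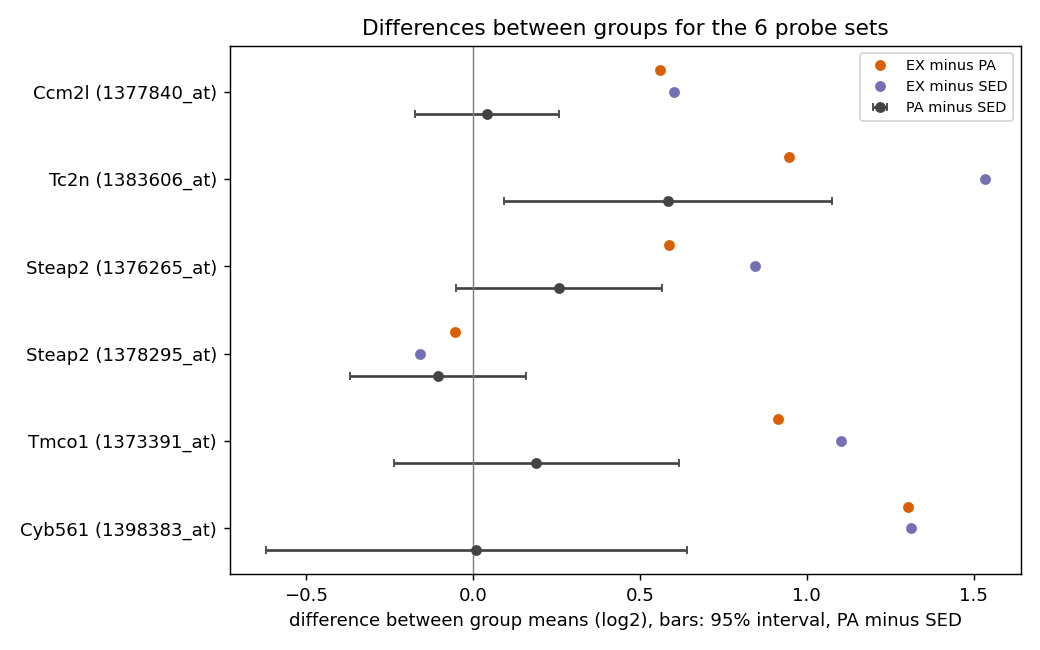
Differences between group means (log2) for the 6 probe sets, with EX minus PA, EX minus SED and PA minus SED as points and the 95% interval of the limma fit drawn for PA minus SED only. The PA minus SED interval of Tc2n (0.094 to 1.08) lies above 0 and the others include 0. The values behind Cyb561 in PA and SED, and behind Steap2 1378295_at in all groups, have means under the filter at 4.94.

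The 5 genes did not vary as a block within the groups. Over the 12 arrays their pairwise Pearson correlations ran from 0.650 to 0.902, a range to which the shared high EX values contribute. After the group means were taken away, 4 of the 10 pairs had a correlation above 0 and the range was -0.468 to 0.695. Steap2 and Cyb561 had the highest of these (0.695): EX 3 and PA 4 were high in their groups for both, and PA 2 and SED 1 were low for both. Most PA and SED values of Cyb561 were under the filter at 4.94, among them PA 2 (4.40) and SED 1 (4.26). The correlation of Steap2 with Cyb561 thus rests in part on dim signal. Without SED 1 their residual correlation was 0.648. Tc2n and Tmco1 came next (0.622), with PA 2 and SED 3 high and SED 2 and SED 4 low for both, and without SED 1 this pair had the highest value (0.731). In SED 2 and SED 4 Tc2n was near the filter, at 4.92 and 4.95. Over those 11 arrays 5 of the 10 pairs were above 0, since Tc2n with Cyb561 moved from -0.233 to 0.094. Leaving out SED 1 here was chosen after seeing the data. Across these pairs the residual correlation of Cyb561 was -0.087 with Tmco1 (-0.01 without SED 1), and with Tc2n it changed sign as said above. Those of Steap2 were negative, at -0.468 with Tmco1 and -0.440 with Tc2n (-0.433 and -0.281 without SED 1). EX 2, for example, was the highest EX array for Ccm2l and Tmco1 and the lowest for Steap2. These correlations rest on 12 arrays that share their RNA between genes and are given without a test.

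**Figure D3:**
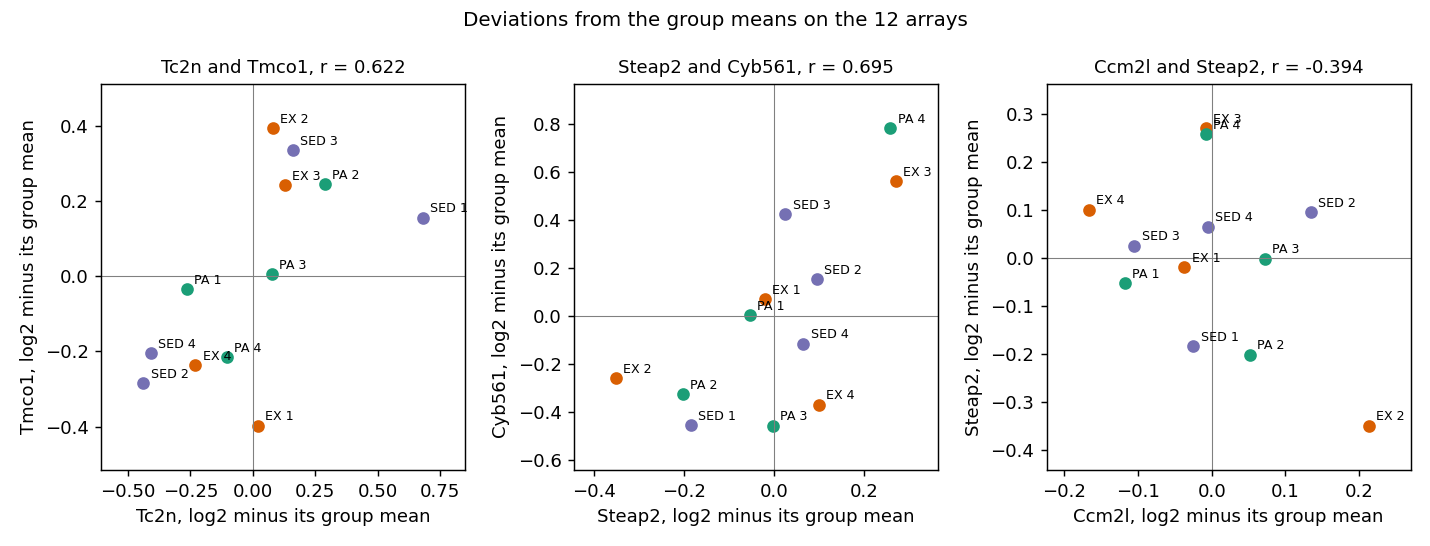
Each array's log2 value minus its group mean for Tc2n and Tmco1, for Steap2 and Cyb561, and for Ccm2l and Steap2, with 12 labelled arrays a panel. The residual correlations are 0.622, 0.695 and -0.394, and PA 4 and EX 3 stand at the upper right of the Steap2 and Cyb561 panel. Most PA and SED values of Cyb561 behind that panel are under the filter at 4.94.

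Inside the EX group the mean of the atrial markers followed the order of Cyb561, while the 2 nerve genes that could be tested did not. Inside the PA group the nerve gene Npy followed it, while the atrial mean did not. The mean of the 8 measured atrial genes was 8.74 in EX 3, 8.53 in EX 1, 7.66 in EX 2 and 7.61 in EX 4, the same order as Cyb561 (6.59, 6.10, 5.77 and 5.66). The atrial light chain Myl7 split these arrays most, at 10.12 and 10.88 in EX 1 and EX 3 against 4.09 and 4.23 in EX 2 and EX 4. Its values in EX 2 and EX 4 were both under the filter at 4.94, so no order is read between them. Sarcolipin (Sln), a calcium pump regulator of atrial muscle, read 6.89, 6.65, 7.52 and 6.04 in EX, 6.28, 6.21, 6.21 and 5.55 in PA, and 6.18, 5.62, 6.44 and 5.87 in SED. It was also in the order of Cyb561 within EX, and EX 1, EX 2 and EX 3 lay above all PA and SED arrays. The EX minus PA difference was 0.71 for Sln and -0.22 for Myl7, and ran from -0.29 to 0.09 for the other 6 atrial genes. In PA and SED the atrial mean ran from 7.98 to 8.25 and from 7.86 to 8.15, and PA 4, the highest PA array for Cyb561, had the lowest atrial mean of its group. On the linear scale the summed atrial signal ran from 5199 to 8057 in EX, 5262 to 6261 in PA and 4820 to 6367 in SED, so the groups overlapped. The mean of the 2 tested skeletal muscle genes was also higher in EX 1 and EX 3 (9.25 and 9.22) than in EX 2 and EX 4 (8.98 and 8.97). Of 10 nerve and Schwann cell genes, 7 were on the array and 2 were bright enough to test. One of them, the sympathetic transmitter gene Npy, read 7.93, 7.70, 7.31 and 8.16 in EX, 7.33, 6.63, 6.48 and 7.92 in PA, and 6.13, 6.93, 7.48 and 7.15 in SED. Cyb561 is known from catecholamine vesicles. Both genes had the order PA 4, PA 1, PA 2 and PA 3 from high to low, and both were highest in SED 3 and lowest in SED 1 within SED. Except in PA 4 and SED 3, these Cyb561 values were under the filter at 4.94. EX 3, the highest array of all for Cyb561, was the lowest EX array for Npy. The other, the neuronal filament gene Prph, read 5.02 to 5.51 in EX, 4.94 to 5.89 in PA and 5.18 to 5.67 in SED. The EX minus PA difference was 0.69 for Npy and -0.07 for Prph, and for Prph PA 4 lay below PA 2 and PA 3. The noradrenaline-synthesis enzyme Th was dim on every array (3.29 to 3.74). The part of atrial or nerve tissue in the Cyb561 values was not tested.

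Genes with the most similar pattern were picked by Pearson correlation over the 12 arrays. Ccm2l, Tc2n, Steap2, Tmco1 and Cyb561 were chosen on their EX differences, so high EX values contribute to these correlations. Tc2n and Tmco1 were each other's nearest gene (0.902), and each of Steap2 and Cyb561 was the other's second nearest (0.888). For Ccm2l the nearest were Trafd1, a regulator of innate immune signalling, at 0.870, Tmco1 at 0.863 and Mcm10 at 0.859. Next to Tmco1, Tc2n was most like Klf2 (0.888) and the ubiquitin and SUMO ligase Topors (0.877). Klf2 differed far less than Tc2n, at 9.66 ± 0.042 in EX, 9.50 ± 0.12 in PA and 9.45 ± 0.078 in SED (SD, n = 4 each). Steap2 was nearest to the splicing factor Srsf10 (0.905), and in the third place to the semaphorin and VEGF co-receptor Nrp2 (0.849). Tmco1 was followed by the BMP receptor Bmpr1a (0.869) and the sterol-regulated gene Insig1 (0.868). Cyb561 was nearest to LOC102548205 (0.890) and had the zinc finger gene Plagl1 in the third place (0.837). After the group means were taken away, the correlation of Ccm2l with Tmco1 was 0.248. The other pairs named in this paragraph then ran from 0.516 (Tc2n with Topors) to 0.795 (Ccm2l with Mcm10). All these pairs were picked for a high correlation over the same arrays, and none was tested.

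Genes known to act with these proteins were listed by role, and 0 of the 76 tested passed in EX against PA. Since 0 of all 18626 tested probe sets passed there (0%), the counts of 0 given here and in the next paragraph cannot set the listed genes apart. In the CCM signalling list 0 of 20 tested genes passed in either direction, with a median difference of -0.018, beside a median of -0.018 over all 10244 genes. Klf2, the target of the pathway to which Ccm2l belongs, was 0.16 ± 0.086 (SE) higher in EX with an adjusted limma p of 1, and 0 genes of the list had an unadjusted p under 0.05. Rhoa stood at -0.18 ± 0.10 (SE) and Stk25, a kinase that binds the complex, at -0.22 ± 0.20. For iron and copper handling with the other STEAP genes, 0 of 16 passed in either direction and 0 had an unadjusted p under 0.05, with a median of -0.026. The copper pump Atp7a differed by 0.17 ± 0.12 (SE), the iron-responsive Aco1 by -0.12 ± 0.089 and the haem oxygenase Hmox1 by 0.25 ± 0.19. Klf2, Rhoa and Atp7a have 2 tested probe sets each, of which only the brighter is given.

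Among the relatives of Cyb561 and the genes of ascorbate and dense-core vesicles, 7 of 14 were bright enough to test and 0 passed, with a median of -0.078. Cybrd1, the duodenal reductase of the same family, differed by -0.40 ± 0.26 (SE), and Frrs1, another family member, by 0.17 ± 0.21. Dbh, the vesicle enzyme that uses ascorbate, differed by -0.0875 ± 0.13. Its means were near the filter, at 4.93 in EX and 5.02 in PA, and highest in SED (5.35). Of the C2-domain trafficking genes 8 of 25 were tested and 0 passed (median 0.026). Sytl3, a Rab27 effector with tandem C2 domains, was 0.32 ± 0.13 (SE) higher in EX than in PA, with an unadjusted limma p of 0.0333 and an adjusted p of 1. Its SED mean of 5.95 was above its EX mean of 5.90, unlike that of Tc2n. In the list of endoplasmic reticulum calcium and membrane insertion genes 0 of 25 passed, with a median of -0.015. The translocon subunit Sec61b was 0.24 ± 0.10 (SE) higher in EX, with an unadjusted limma p of 0.0368 and an adjusted p of 1, the chaperone Hspa5 stood at -0.17 ± 0.082 and the store-operated channel Orai3 at -0.33 ± 0.19. Sytl3 and Sec61b were the only genes of the 5 lists with an unadjusted p under 0.05 in EX against PA, a level that 0.937% of all genes reached with EX higher and 1.59% with EX lower.

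**Figure D4:**
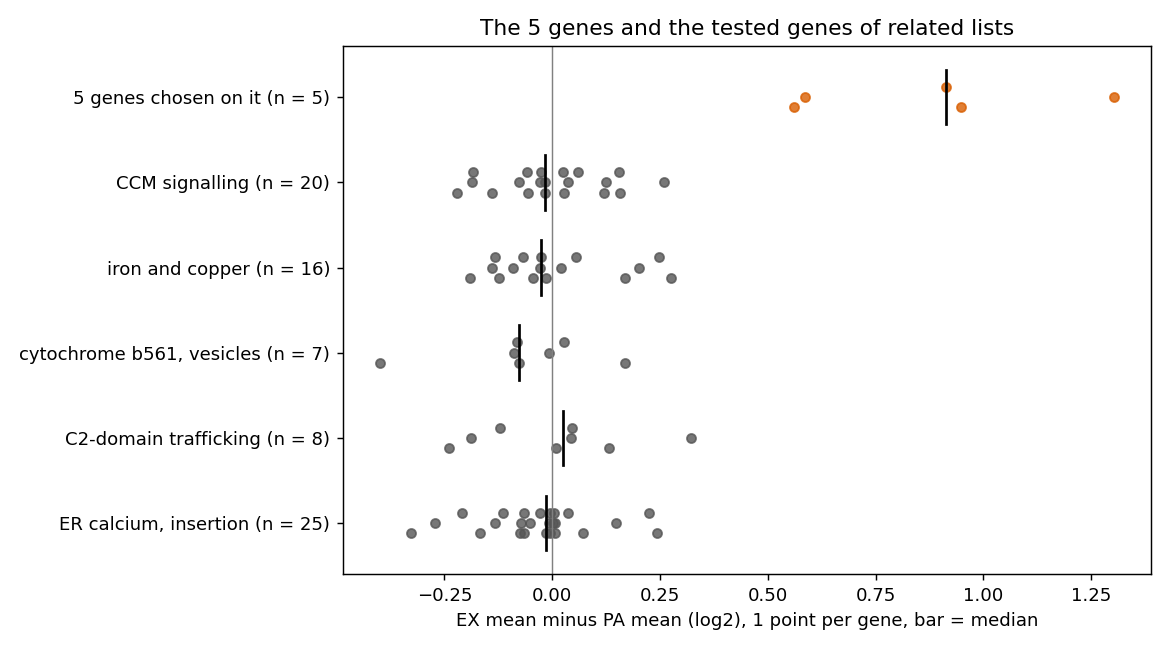
EX mean minus PA mean (log2) for the 5 genes chosen on this difference and for the tested genes of the 5 related lists, with 1 point a gene and a bar at the median. The 5 chosen genes lie between 0.56 and 1.30, while the listed genes lie between -0.40 and 0.32 with medians from -0.078 to 0.026. The medians of the smallest lists turned sign with the upper 40% filter, to 0.01 for the relatives of Cyb561 and -0.12 for the C2-domain genes.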

How the data were processed

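RNA from the left ventricle was measured on 12 Affymetrix rat arrays, 4 a group, assigned from the array titles. The authors deposited log2 values with 2 decimals for 31099 rows. MAS5 and RMA are both named in the submitters' processing notes, with no role given, so the background correction is unknown, and the log2 scale was read from the range. They were used as deposited. After 57 control rows were left out, the upper 60% of probe sets by mean over all arrays were tested (18626, filter at 4.94), and a gene was represented by its brightest tested probe set, whatever its values. Genes were named from GEO's platform annotation, and the 5 symbols matched the current RefSeq table (GRCr8), which also gave the promoters.

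Differences were fitted with limma 3.58.1 in R 4.3.3, with 3 group means over all 12 arrays, two-sided moderated tests and Benjamini-Hochberg adjustment over all tested probe sets at 0.05. The steps were tested on simulated data. Arrays carry no read depth, and their number limits the precision. The genes and lists were chosen with earlier results of these data known. The text names the 5 genes, the 3 genes nearest to each by Pearson correlation, the genes ranked next to them in EX against PA, and up to 4 genes a list with the smallest p in EX against PA. Myl7, Sln, Npy, Prph and Th were taken from the marker lists by no such rule. Figures were drawn with matplotlib 3.10.9. Alternatives were quantile normalization, median centring, no filter and an upper 40% filter, an offset of 32, a trended robust variance, array weights, a fit of 2 groups at a time, a block for the replicate number, the mean of a gene's probe sets, and each array left out in turn.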

Additional observations from a re-analysis of the deposited data

Results flagged for a closer look

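A check for outlying arrays covered the 5 genes, the list genes with the smallest p and the genes nearest by correlation. Itfg2, Med23, Pxdc1 and the atrial and nerve markers were not in it. In 4 of 105 groups of 4 arrays, 1 array stood apart from the other 3 by Dixon's criterion. That criterion measures the gap against the range of the group, so the gap itself can be small, and chance meets it in about 1 group in 20 (5%). None concerned Ccm2l, Tc2n, Steap2, Tmco1 or Cyb561 itself. EX 2 was that array in 3 of them: Plagl1, near to Cyb561 in pattern, read 8.08 there against 8.65 to 8.72 on the other EX arrays, Sytl2 read 5.46 against 6.60 to 6.78, and Insig1, near to Tmco1, read 11.45 against 11.38 to 11.39. Rab27a read 9.34 in PA 3 against 9.68 to 9.73 on the other PA arrays.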

How the results depend on the processing

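With an offset of 32, EX minus PA was 0.69 for Tc2n and 0.72 for Cyb561, and EX minus SED 1.03 and 0.74. The EX differences chose the genes, so their sign under other settings is no sign of stability. PA minus SED passed the threshold in 0 of 108 refits but changed sign for the genes nearest 0. Ccm2l stood at -0.077 with quantile normalization and at -0.0043 with array weights. Cyb561 stood at -0.056 with array weights, and leaving out an array gave -0.25 (without PA 4) to 0.16 (without PA 3), with -0.14 without SED 1 and -0.029 without SED 4. The cause was not tested. With array weights 1 probe set passed in EX against PA, 8 in EX against SED and 1 in PA against SED, where the unweighted fit called 0 each. Leaving out an array gave 0 to 2 calls in EX against SED (2 without SED 1, 1 without EX 2) and 0 in the other comparisons. The upper 40% filter left out Tc2n and Cyb561. The replicate numbers did not pair the arrays (residual correlation above 0.1 in 4 of 12 pairs, and 2 of 12 arrays nearest to their own number). With the number as a block 0 probe sets passed in each comparison, with 551 at an unadjusted p under 0.05 in EX against PA. Of 315 refits of list medians, 11 moved by more than the replicate spread, all in the 2 smallest lists. In EX minus PA the median of the relatives of Cyb561 ran from -0.115 (without EX 2) to 0.01 (upper 40% filter), with -0.01 without EX 4, and that of the C2-domain genes from -0.12 (upper 40% filter) to 0.036 (without EX 2). Cyb561 in PA and SED, the second Steap2 probe set and Tc2n in SED 2 and SED 4 have values near or under the filter, where dim signal limits what can be read.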
